A study of Homo sapiens with 62 samples.

Results

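The genes described here are HR, which encodes the Hairless corepressor, and 6 genes of the nuclear receptor pathways that Hairless is known to act on: VDR, RXRA, RORA, THRA, THRB and CYP24A1. They were found by gene name in the count tables, and all 7 were present among 29794 genes. The set was chosen by the T>C read counts of AsPC-1 cells in which KLF5 was degraded, where HR had the smallest p-value of 11696 genes. The values of that comparison fixed the choice, and they are given below as a description without a test.

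Hairless is a nuclear protein with a JmjC domain, a fold shared with histone demethylases, and is best known from the hair follicle, where its loss causes hair loss. It binds the vitamin D receptor (VDR), the thyroid hormone receptors (THRA and THRB) and the retinoic acid receptor-related orphan receptors such as RORA, and represses transcription at their target genes. VDR and the thyroid hormone receptors are ligand-controlled transcription factors that bind DNA mostly as heterodimers with the retinoid X receptor RXRA, whereas RORA binds DNA alone and is a part of the circadian clock. CYP24A1 is the hydroxylase that inactivates vitamin D and is a classical target gene of VDR.

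SLAM-seq was performed in AsPC-1 and T3M-4, human pancreatic ductal adenocarcinoma cell lines that model the classical and the basal-like subtype. This method feeds cells 4-thiouridine (4sU) shortly before they are harvested, and reads of RNA made during labelling then carry T>C conversions. All cells, controls included, had the genotype FKBP12-F36V-FLAG-KLF5_sgEndogenousKLF5: endogenous KLF5 was inactivated by a guide RNA and replaced by a lentiviral KLF5 cDNA fused to a degron, so the level of KLF5 was not under its own promoter. The labels give 62 libraries in 12 groups. In AsPC-1, 10 libraries received dTAGv1 for 4 h, which brings about degradation of the tagged KLF5, and 10 received its inactive analogue dTAG-NEG. A further 5 received CB6644, an inhibitor of the RUVBL1/2 ATPases, for 4 h beside 5 with the solvent DMSO, and 4 received CB6644 for 12 h beside 4 with DMSO. The last 4 AsPC-1 libraries received NVP2, an inhibitor of the kinase CDK9, which releases paused RNA polymerase II, for 4 h. In T3M-4, dTAGv1, dTAG-NEG, CB6644, NVP2 and DMSO were given for 4 h with 4 libraries each. The compounds are written dTAG, NEG, CB-6644 and NVP-2 from here on.

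Libraries held 82676553 to 200298262 reads in AsPC-1 and 111132257 to 244524608 in T3M-4, of which 2240998 to 18311982 and 3714015 to 27982537 were T>C reads. One all-reads column, that of AsPC-1 dTAG replicate 3.1, held the T>C values of another library and was left out, so levels in all reads and labelled shares of that group rest on 9 libraries. Within AsPC-1, libraries fell into 3 sets of 17, 17 and 8 (A, B and C) that cut across the treatments, and set C held none of the 12 h or NVP-2 libraries. Replicates are numbered by experiment and library, and nothing in the labels says whether the libraries of 1 experiment came from separate cultures, so the p-values measure the spread between these libraries, which may be technical. The AsPC-1 NVP-2 libraries were all of batch 2 and their DMSO 4 h controls all of batch 1, so batch and treatment cannot be told apart there. Epithelial markers were present at 1 CPM or more in both lines (5 of 5), classical markers in 6 of 7 for AsPC-1 and 3 of 7 for T3M-4, and basal-like markers in 1 of 5 and 5 of 5. Markers of other cells reached 1 CPM in 0 of 6 for AsPC-1 and 2 of 6 for T3M-4, COL1A1 and ACTA2, with a highest mean of 7.04 CPM. KLF5 reads were counted over its 3′UTR exons, and whether the transgene carries these is not given in the sources used here. KLF5 measured 101 ± 19.6 T>C CPM with NEG and 152 ± 18.7 with dTAG in AsPC-1 (SD, n = 10 and 10). In T3M-4 it measured 536 ± 45.7 and 1006 ± 82.6 (n = 4 and 4). RNA therefore does not check the loss of the protein.

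A T>C CPM is the T>C reads of a gene relative to the total T>C reads of its library, so it follows the make-up of new RNA and not its amount. The labelled share is the T>C reads of a gene as a percent of all its reads in that library, and it falls when less new RNA is made or when old RNA lasts longer. Neither a spike-in nor a library without 4sU was used here. Fewer cells and less RNA per cell cannot be told apart in these bulk samples. A gene is called when its adjusted p is below 0.05 over all genes tested.

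Reads were counted over 3′UTR exons, and all positions are those of GRCh38 (hg38). HR (ENSG00000168453.16) lies on the minus strand of chromosome 8, from 22114419 to 22133384, with annotated 3′UTR exons between 22114419 and 22121212, and it overlaps HRURF, an upstream reading frame of the same transcript. VDR (ENSG00000111424.12) is on chromosome 12 from 47841537 to 47943048, minus strand. RXRA (ENSG00000186350.12) is on chromosome 9 from 134317098 to 134440585, plus strand. RORA (ENSG00000069667.16) covers chromosome 15 from 60488284 to 61229302 on the minus strand. THRA (ENSG00000126351.13) is on chromosome 17 from 40058290 to 40093867, plus strand, and its end overlaps that of NR1D1 on the opposite strand, which starts at 40092793. THRB (ENSG00000151090.20) is on chromosome 3 from 24117153 to 24495756 and CYP24A1 (ENSG00000019186.10) on chromosome 20 from 54153446 to 54173986, both minus. Whether the counting used the strand is not given in the sources used here, so reads of THRA and NR1D1 may not be separated.

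HR counts came in steps of 3. The T>C count of HR was a multiple of 3 in 42 of 42 AsPC-1 libraries and 20 of 20 T3M-4 libraries, and its all-reads count in 40 of 41 and 20 of 20. Divided by 3, the HR T>C counts were 12 to 33 per AsPC-1 dTAG library, 121 to 251 in NEG, 2 to 19 in NVP-2 and 205 to 413 in T3M-4 dTAG. If each HR read was counted 3 times, which was not tested, counting error for HR is larger than its deposited counts imply. The spread of HR between libraries contains that error. The tests also draw on the spread of other genes with similar counts, so whether the p-values of HR hold that error in full was not tested.

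The labelled share of HR was above that of the whole library in both lines. In the 19 AsPC-1 libraries with NEG or DMSO the labelled share of HR was 14.6% at the lowest, 18% at the median and 26.0% at the highest, and that of the whole library 7.93%, 9.45% and 10.6%. In the 8 T3M-4 control libraries the HR share was 24.7%, 31.2% and 37.2%, against 11.1%, 12.6% and 14.1% for the whole library. HR was thus above the library's own share in all control libraries of both lines. A share above the library's was not particular to HR. Among the receptors, AsPC-1 medians were 18.5% for VDR, 12.4% for RXRA, 33.3% for RORA, 13.5% for THRA and 32.7% for THRB. In T3M-4 they were 25.7%, 16.3%, 29.2%, 11.9% and 32.0% in the same order, with THRA below the library's median.

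Degradation of KLF5 in AsPC-1 went with the loss of most labelled HR RNA. The HR T>C CPM was 22.7 at the lowest, 35.3 at the median and 46.0 at the highest in the 10 NEG libraries, and 2.91, 5.80 and 8.98 in the 10 dTAG libraries. All 10 dTAG libraries lay below all NEG libraries, with means of 5.68 ± 2.04 and 36.1 ± 7.62 (SD). The log2 fold change was -2.66 (SE 0.20), which was 7 by rank from the lowest among the 11696 genes. HR was the 1 gene of the 6 tested from the set that was called, beside 2.4% of all genes, and this count was fixed by the choice of HR.

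Within the comparison that chose HR, its T>C CPM was lower in each experiment and each library set, which describes these libraries and is no separate support. The log2 ratio of mean T>C CPM between dTAG and NEG was -2.82 in experiment 1, -1.90 in experiment 2 and -2.97 in experiment 3. Within sets the log2 fold change was -2.59 in A, -3.21 in B and -1.89 in C, which held only 2 libraries of each group. For these groups set C holds the same libraries as experiment 2, so the smallest difference is 1 result given in 2 forms. It is also the one with the fewest libraries.

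**Figure D1:**
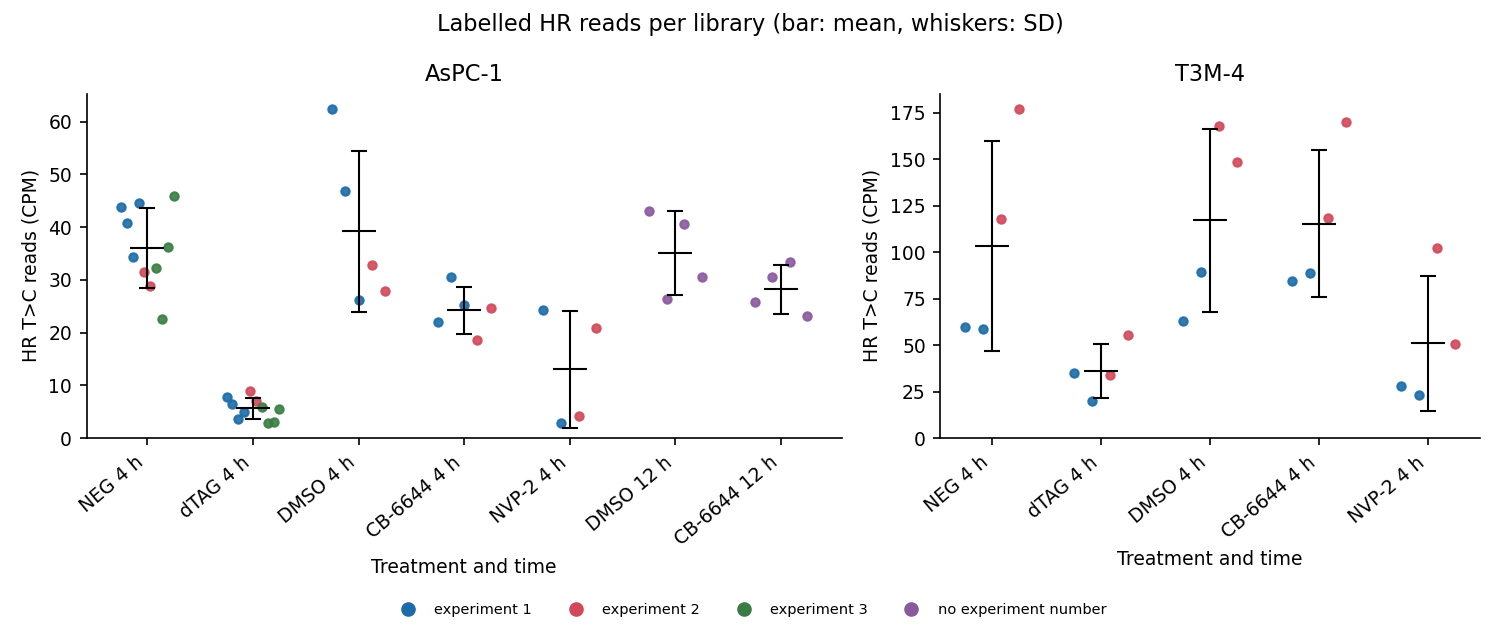
HR T>C CPM in each library (points) by treatment group, AsPC-1 and T3M-4, with the group mean and SD marked, on a linear axis. The AsPC-1 dTAG libraries sit between 2.91 and 8.98, below the NEG libraries at 22.7 to 46.0, and the T3M-4 dTAG libraries at 19.9 to 55.5 lie below the NEG libraries at 59.0 to 177.

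Steady-state HR RNA was also lower. In all reads, HR measured 14.9 to 27.2 CPM in NEG libraries (median 18.8) and 4.24 to 15.2 CPM in dTAG libraries (median 8.58), a log2 fold change of -1.14 (SE 0.19). The labelled share went from 14.6–21.8% to 3.16–10.5%, with no overlap between the groups and a log2 change of -1.77 (SE 0.19). The share of the whole library also moved, from a mean of 9.30% to 8.001%, so genes had a median log2 change in share of -0.27. HR was called in all reads beside 0.797% of all genes, and in labelled share HR, RXRA and THRA were called, 3 of 6, beside 34.1%. The T>C reads that chose HR are part of its all reads and of its labelled share, so neither is independent of the choice.

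The receptors showed no change of that size in AsPC-1. The T>C CPM of VDR was 4.25, 22.0 and 28.7 (lowest, median, highest) in NEG and 7.61, 15.5 and 26.7 in dTAG libraries, and its log2 fold change was -0.30 (SE 0.26). For RXRA the values were 31.5, 47.2 and 78.1 in NEG against 20.7, 38.4 and 41.6 in dTAG, a log2 fold change of -0.48 (SE 0.17), which was -0.47 and called with the replicate block. THRA went from 18.6, 22.5 and 30.4 to 11.5, 19.0 and 30.0, a log2 fold change of -0.23 (SE 0.16). The groups overlapped for all 3 receptors.

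The labelled shares of RXRA and THRA were called only before each library's own share was taken into account. RXRA had a share of 9.25% to 14.4% in NEG and 6.22% to 12.1% in dTAG libraries (log2 change -0.43), and THRA 8.96% to 17.3% and 7.64% to 14.5% (log2 change -0.46). After subtraction of each library's own share these changes were -0.22 and -0.25, and neither was called. Without experiment 1 neither was called either, at -0.46 and -0.40. THRB T>C CPM ranged from 43.97 to 105.9 in NEG and from 36.0 to 119.8 in dTAG libraries, and RORA from 0.115 to 5.21 and from 0 to 3.53. Both ranges overlapped nearly in full.

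In T3M-4, where HR was not used to choose the set, HR T>C CPM was also lower without KLF5, but the call depended on the model. The NEG libraries had 59.8 and 59.0 in experiment 1 and 118 and 177 in experiment 2, and the dTAG libraries 35.0 and 19.9 in experiment 1 and 34.1 and 55.5 in experiment 2. All 4 dTAG libraries were below all 4 NEG libraries, and experiment 2 had the higher control values. The log2 fold change was -1.53 (SE 0.41), and the edgeR quasi-likelihood test gave an unadjusted p of 0.00343 and an adjusted p of 0.176. With the replicate number as a block, it was -1.46 with an edgeR adjusted p of 0.0079. That pairing was inferred from correlations in these data, where 3 of 4 dTAG libraries matched the NEG library of their own number best. DESeq2 gave -1.52 with an adjusted p of 0.015. With libraries summed per experiment, 2 against 2, it was -1.60 with an edgeR adjusted p of 1.0. Within batches, which here are the experiments, the values were -1.104 with an edgeR adjusted p of 0.243 and -1.72 with 0.0653.

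The other measures of HR in T3M-4 dTAG libraries lay on the same side and were not called. The labelled share was 31.6%, 34.8%, 24.7% and 33.8% in NEG and 24.8%, 24.5%, 16.4% and 19.0% in dTAG libraries. Of the 4 dTAG libraries, 3 were below the lowest NEG library and 1, at 24.8%, was just above it. The log2 change was -0.57 (SE 0.17) with a limma adjusted p of 0.452. In all reads HR measured 25.7, 23.0, 61.2 and 64.8 CPM in NEG and 19.5, 11.7, 28.4 and 37.2 in dTAG libraries, a log2 fold change of -0.85 (SE 0.44). Each dTAG library was below the NEG library of the same number, while the 2 groups overlapped.

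Without the replicate block, edgeR called none of the set in T3M-4 dTAG against NEG. In T>C reads 0 of 7 were called beside 0.834% of all genes, with 1 (HR) at an unadjusted p under 0.05 and 1 (HR) called by DESeq2 and by edgeR with the block. In all reads 0 of 7 were called beside 0.0191%, with 0 at an unadjusted p under 0.05 and 0 by DESeq2, and in labelled share 0 of 7 beside 0.195%, with 1 at an unadjusted p under 0.05. RXRA T>C CPM was 113, 123, 65.0 and 65.4 in NEG and 112, 91.8, 62.0 and 57.1 in dTAG libraries, a log2 fold change of -0.19 (SE 0.29). These values followed the experiment rather than the treatment.

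CB-6644 for 4 h went with a lower labelled share of HR in AsPC-1. The share was 18%, 18.8%, 21.8%, 21.4% and 26.0% in the DMSO libraries and 13.0%, 11.8%, 13.2%, 12.0% and 15.3% in the CB-6644 libraries. The 2 groups did not overlap, and the log2 change was -0.69 (SE 0.12) with a limma adjusted p of 0.0250. HR was the 1 of 6 genes called there, beside 1.79% of all genes. The whole library's share was also lower, 8.51% against 10.1% on average, and after subtraction of it the change in HR was -0.45 with an adjusted p of 0.46. The call was also lost when DMSO replicate 1.2 or 1.3, or CB-6644 replicate 1.2, 1.3 or 2.1, was left out, with adjusted p-values from 0.0538 to 0.0795.

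The T>C CPM of HR after 4 h of CB-6644 was 22.1, 30.5, 25.2, 18.5 and 24.7, against 62.3, 46.8, 26.2, 32.8 and 27.8 with DMSO. Of the 5 treated libraries, 4 lay below all controls, and CB-6644 replicate 1.2 lay among them. The log2 fold change was -0.70 (SE 0.25) with an edgeR adjusted p of 0.979. VDR (log2 fold change -0.47, SE 0.22), RXRA (-0.46, SE 0.29) and THRB (0.39, SE 0.20) were not called either. For VDR 4 of 5 treated libraries were below all controls and for THRB 4 of 5 were above, whereas the RXRA value came from experiment 1 and was 0.27 in experiment 2 alone.

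**Figure D2:**
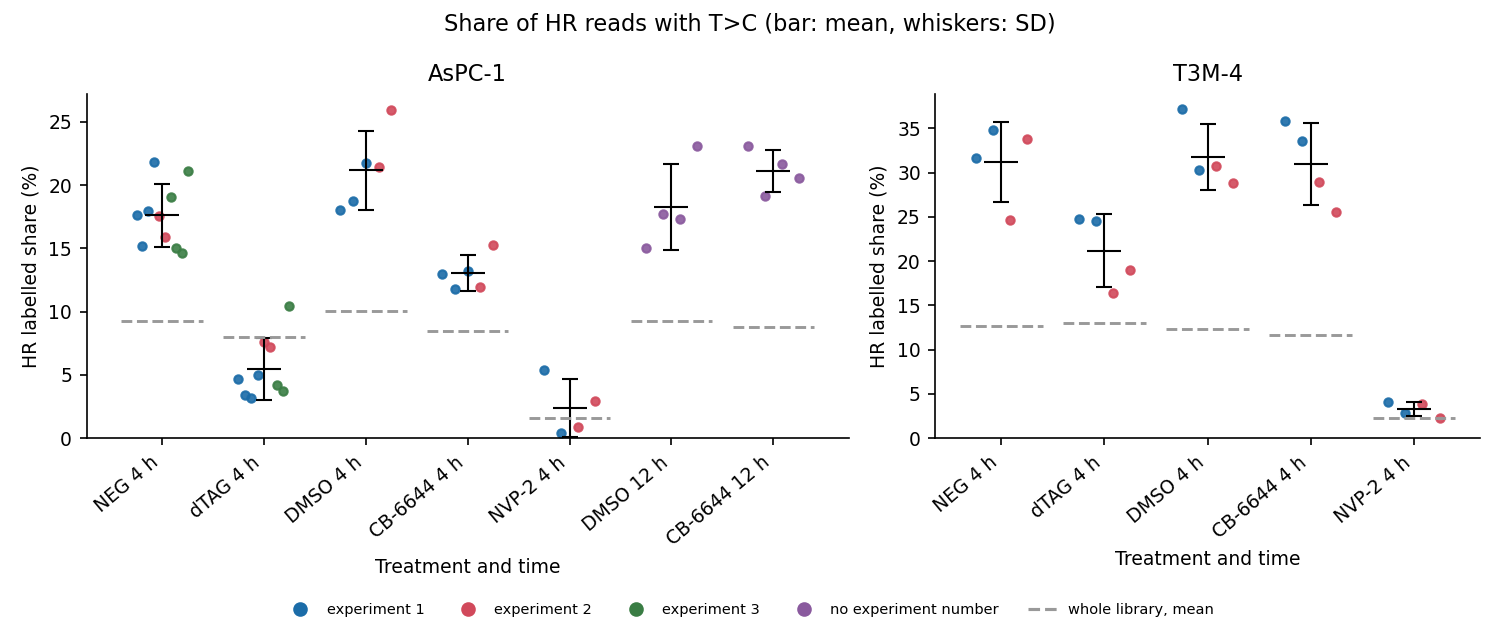
Labelled share of HR (T>C reads as a percent of its reads) in each library by group, AsPC-1 and T3M-4. The 5 AsPC-1 CB-6644 4 h libraries, 11.8% to 15.3%, lie below the 5 DMSO libraries, 18% to 26.0%, while the 12 h groups overlap and the NVP-2 libraries lie at 5.40% or lower in AsPC-1.

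At 12 h the lower share was not seen. All 12 h libraries were of batch 2, and the CB-6644 and DMSO 4 h libraries of AsPC-1 were all of batch 1. Time and batch therefore cannot be told apart. HR had shares of 23.1%, 19.1%, 21.6% and 20.6% with CB-6644 and of 15.0%, 17.7%, 17.3% and 23.1% with DMSO, a log2 change of 0.22 (SE 0.15). The 4 treated libraries were above 3 of the 4 controls, and DMSO replicate 4 was level with the highest of them. The T>C CPM was 25.8, 30.6, 33.5 and 23.1 against 43.1, 26.4, 40.7 and 30.5, a log2 fold change of -0.31 (SE 0.22) with an edgeR adjusted p of 0.998. RORA, at 0.587 T>C CPM on average against 1.73, rested on few reads.

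In T3M-4 CB-6644 did not separate HR from its controls. The T>C CPM was 84.4, 88.7, 119 and 170 with CB-6644 and 63.3, 89.3, 168 and 149 with DMSO, a log2 fold change of -0.01 (SE 0.33) whose sign turned with the replicate block (0.036) and in batch 1 alone (0.18). The difference between the HR effects of CB-6644 in the 2 lines, T3M-4 minus AsPC-1, was 0.66 (SE 0.43) with an edgeR adjusted p of 1.0, so a difference between lines was not shown.

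No gene of the set was called in the T>C reads of any CB-6644 comparison. The count was 0 of 6 at 4 h in AsPC-1 beside 0% of all genes (1 of the 6 at an unadjusted p under 0.05), 0 of 6 at 12 h beside 0% (0 at an unadjusted p under 0.05), and 0 of 7 in T3M-4 beside 0% (0 at an unadjusted p under 0.05). DESeq2 also called 0 in each. All reads gave 0 of 6 beside 0%, 0 of 6 beside 0% and 0 of 7 beside 0.0127%, with 1, 0 and 0 at an unadjusted p under 0.05 and 0 by DESeq2. Labelled share gave 0 of 6 beside 0.0146% at 12 h and 0 of 7 beside 0% in T3M-4, with 1 and 0 at an unadjusted p under 0.05. For the difference between lines, edgeR called 0 of 7 beside 0%, with 0 at an unadjusted p under 0.05 and 0 by DESeq2.

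With NVP-2 labelled RNA was a much smaller part of the libraries, so shares and CPM moved apart. The whole library's labelled share averaged 1.57% with NVP-2 and 10.1% with DMSO in AsPC-1, and 2.24% and 12.4% in T3M-4. The median log2 change in share over all genes was -3.07 and -3.16. A higher T>C CPM after NVP-2 is therefore a larger part of a much smaller pool. When T>C reads were scaled by all reads in place of T>C reads, the median log2 fold change over all genes changed from -0.05 to -3.04 (AsPC-1) and from -0.12 to -2.97 (T3M-4). The split of calls went from 1488 higher and 2018 lower to 9 and 10642, and from 1523 and 1740 to 10 and 10516.

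VDR fell with NVP-2 in both lines beyond the fall of the library. In AsPC-1 its T>C CPM was 24.8, 23.7, 31.7, 23.4 and 22.9 with DMSO and 2.56, 5.70, 13.8 and 8.83 with NVP-2. The NVP-2 values stood for 6, 12, 29 and 14 T>C reads. T>C counts of VDR were even numbers in most libraries of both lines, and whether its reads were counted more than once was not tested. The groups did not overlap, and the log2 fold change was -1.68 (SE 0.42) with an edgeR adjusted p of 0.0106. Against the controls of batch 2 it was -1.12 with an adjusted p of 0.214 for NEG libraries and -1.58 with 0.0563 for DMSO 12 h libraries. In T3M-4 it was 57.3, 47.0, 32.0 and 30.4 with DMSO and 24.2, 9.55, 13.2 and 7.76 with NVP-2, again with no overlap, a log2 fold change of -1.50 (SE 0.43) and an adjusted p of 0.0270. Within batches the T3M-4 value was -1.48 (adjusted p 0.0605) and -1.50 (0.0926), and the call was lost without DMSO replicate 1.1 (-1.29, 0.0895) or 1.2 (-1.43, 0.0726) or NVP-2 replicate 1.2 (-1.37, 0.0654).

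The labelled share of VDR showed the same order. It averaged 18.8% with DMSO and 1.02% with NVP-2 in AsPC-1 (log2 change -4.17), and 26.1% and 1.61% in T3M-4 (log2 change -4.06). After subtraction of each library's share, the log2 changes were -1.49 with a limma adjusted p of 0.0036 and -1.58 with 0.0058. VDR was the 1 gene of the set called in either line in that form. The share of all genes called in that form is not given here, so the count has no background beside it. In all reads VDR changed by -0.62 and -0.45 on the log2 scale and was not called. The log2 fold change of RXRA, which pairs with VDR on DNA, was -0.32 in AsPC-1 and -0.35 in T3M-4 in T>C reads, not called, and its share changed by -3.05 and -3.00.

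**Figure D3:**
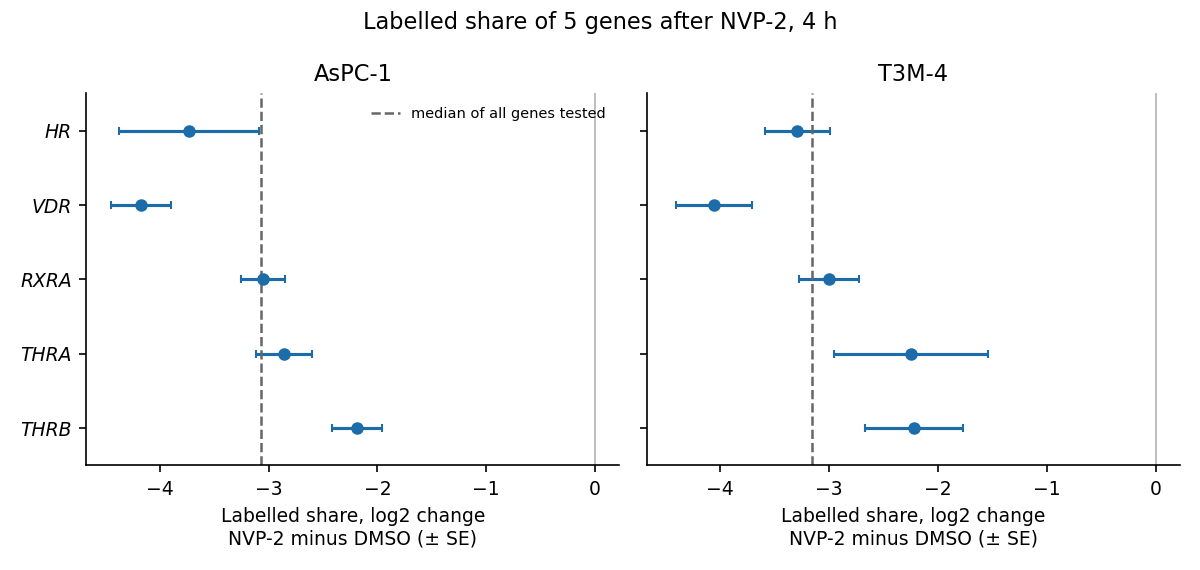
Log2 change in labelled share, NVP-2 minus DMSO, of HR, VDR, RXRA, THRA and THRB in AsPC-1 and T3M-4 (points, bars are SE). The dashed line is the median of all genes tested. Shares were lower with NVP-2 for the genes shown, by log2 changes of -4.17 and -4.06 for VDR and -2.18 and -2.22 for THRB against a median gene at -3.07 and -3.16.

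HR was also lower with NVP-2, with more spread. Its T>C CPM in the 4 AsPC-1 NVP-2 libraries was 24.3, 2.85, 4.28 and 20.8, all below the DMSO libraries (26.2 to 62.3), a log2 fold change of -1.54 (SE 0.58) with an edgeR adjusted p of 0.0619. Of these libraries, 2 were close to the controls and 2 far below, and without replicate 1.1 the value was -2.09 with an adjusted p of 0.0291. DESeq2 gave an adjusted p of 0.0324. In all reads HR had 7.19, 9.61, 5.89 and 7.71 CPM against 35.8, 27.3, 12.8, 13.9 and 9.93, a log2 fold change of -1.39 (SE 0.38) and an edgeR adjusted p of 0.0359. That call was lost in 6 of the 9 fits that left out 1 library, namely without DMSO replicate 1.1 (adjusted p 0.0607) or 1.2 (0.0791) and without NVP-2 replicate 1.1 (0.0672), 1.2 (0.0578), 2.1 (0.0823) or 2.2 (0.0948).

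In T3M-4 the HR T>C CPM with NVP-2 was 27.9, 23.3, 103 and 50.4, against 63.3, 89.3, 168 and 149 with DMSO. Of the 4 libraries, 3 were below all controls, and replicate 2.1 lay among them. The log2 fold change was -1.13 (SE 0.50) with an edgeR adjusted p of 0.121, and without replicate 2.1 it was -1.77 with 0.0169. In all reads it was -0.87 with an adjusted p of 0.26. The labelled share of HR was 5.40%, 0.373%, 0.890% and 2.97% in AsPC-1 NVP-2 libraries, a log2 change of -3.74, and the log2 change in T3M-4 was -3.29.

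RORA gave no T>C read in any of the 4 AsPC-1 NVP-2 libraries. These libraries held 19, 25, 99 and 34 RORA reads in all, and 0 T>C reads of 177 allows a share of up to 1.69%, which covers counting error only. With DMSO, RORA was at 2.09, 6.02, 2.34, 3.23 and 4.2 T>C CPM, and against a floor of 3 reads per library the level was at least 2.38-fold lower with NVP-2. The edgeR call (adjusted p 0.00359) could not be repeated against controls of batch 2, where RORA was too low. In all reads RORA was at 0.129, 0.149, 0.577 and 0.236 CPM with NVP-2 and 0.487 to 1.91 with DMSO, a log2 fold change of -2.11 (SE 0.56) with an adjusted p of 0.0331. It was lost without DMSO replicate 1.1 (adjusted p 0.0641), 1.2 (0.0653), 1.3 (0.0545) or 2.2 (0.0682), and without NVP-2 replicate 1.1 (0.0609), 1.2 (0.0819) or 2.2 (0.0928). In T3M-4 the NVP-2 libraries had 6.76, 4.66, 0 and 0 T>C CPM and those with DMSO 6.70, 7.85, 7.88 and 4.11, so the zeros were both in experiment 2.

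Of the thyroid hormone receptors, THRB was called as higher in proportion in T3M-4 and THRA was not called. THRB in T3M-4 was at 47.5, 47.2, 61.3 and 61.7 T>C CPM with DMSO and at 119, 150, 95.9 and 119 with NVP-2. All 4 treated libraries were above all controls, and the log2 fold change was 1.24 (SE 0.27) with an edgeR adjusted p of 0.00754, but it was -1.54 when scaled by all reads, so the rise is one in proportion to the other new RNA. Batch 1 alone gave 1.66 (adjusted p 0.0123) and batch 2 alone 0.88 (0.0750). In AsPC-1 THRB was at 43.8, 77.0, 67.7, 97.0 and 97.3 with DMSO and at 95, 89.7, 124 and 74.4 with NVP-2. These groups overlapped, with a log2 fold change of 0.37 (SE 0.27) and an adjusted p of 0.328, which was -2.60 when scaled by all reads. The difference between the lines was 0.85 (SE 0.39) with an unadjusted p of 0.0418 and an adjusted p of 0.343.

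In AsPC-1 the THRA T>C CPM was 18.5, 24.5, 12.0, 12.6 and 19.0 with DMSO and 17.5, 19.0, 19.95 and 37.8 with NVP-2, a log2 fold change of 0.48 (SE 0.34) that was -2.57 when scaled by all reads. In T3M-4, where THRA was low, it was 1.99, 2.43, 1.90 and 1.66 with DMSO and 2.82, 7.11, 1.84 and 3.45 with NVP-2, a log2 fold change of 1.04 (SE 0.61), and -1.69 when scaled by all reads. The log2 change in labelled share was -2.86 and -2.25 for THRA and -2.18 and -2.22 for THRB.

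Counted over the set, NVP-2 called RORA and VDR in AsPC-1 T>C reads, 2 of 6 beside 30.5% of all genes. In T3M-4 it called VDR (lower) and THRB (higher), 2 of 6 beside 26.7%. In all reads the counts were 2 of 7 (HR and RORA) beside 11.8%, and 0 of 7 beside 5.16%, where 1 had an unadjusted p under 0.05 and DESeq2 called 0. In labelled share all genes tested were called, 6 of 6 beside 89.7% and 7 of 7 beside 84.7%. For the difference between the lines edgeR called 0 of 6 beside 0.851%, with 2 at an unadjusted p under 0.05 and 0 by DESeq2. These shares are near the background for T>C reads and labelled share.

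**Figure D4:**
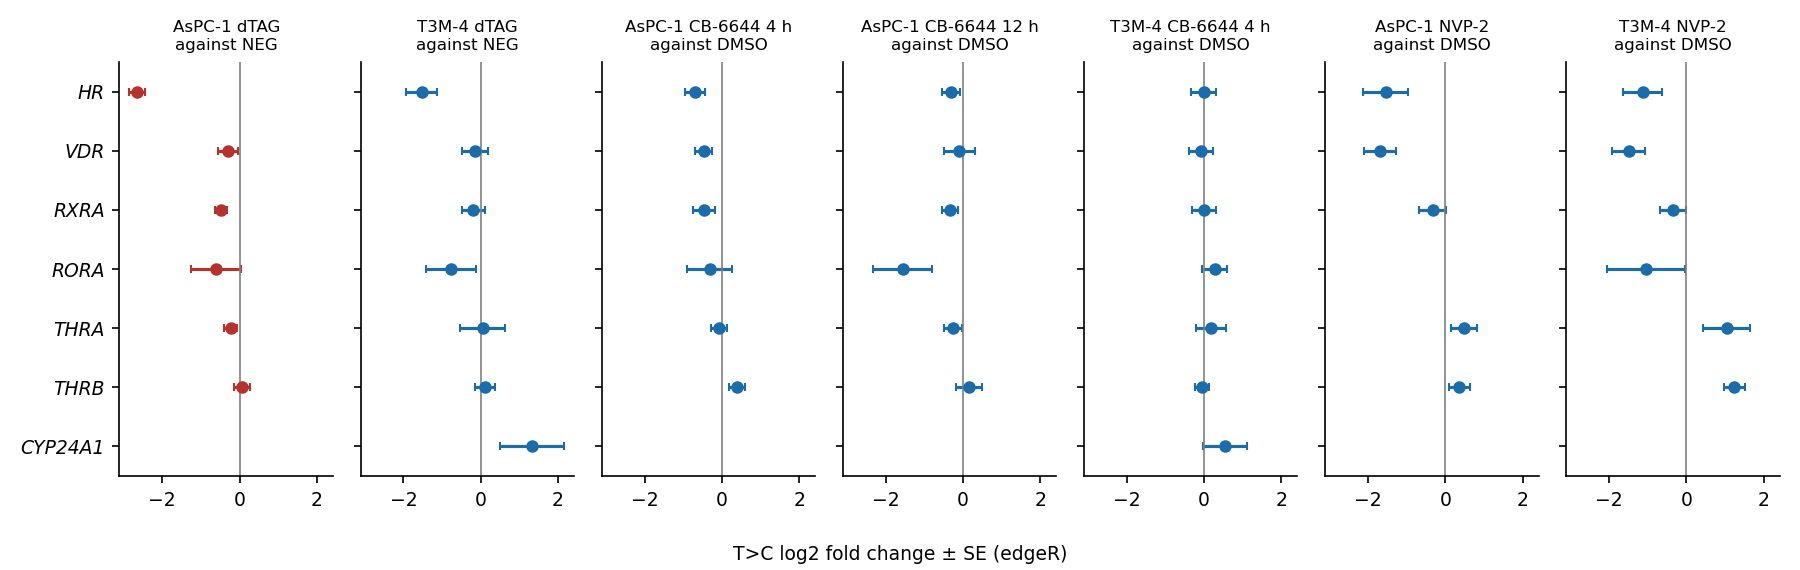
Log2 fold change in T>C reads of each gene of the set (points, bars are 1 SE) in the treatment comparisons of both lines. HR in AsPC-1 dTAG libraries, at -2.66, is the value that chose the set, and VDR lies at -1.68 and -1.50 with NVP-2 while THRB lies at 0.37 and 1.24.

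CYP24A1 was close to absent in AsPC-1. Its T>C CPM was between 0 and 0.575 over all AsPC-1 libraries, and its reads were too few for the tests of T>C reads there. In T3M-4 it was 0.877, 1.03, 0.425 and 0.171 with NEG and 0.334, 1.39, 0.997 and 3.72 with dTAG, a log2 fold change of 1.33 (SE 0.83) with an edgeR adjusted p of 0.931. The 2 groups overlapped, and the value rested on experiment 2, since batch 1 alone gave -0.13. With DMSO it was 0.842, 0.508, 0.740 and 0.832, and with NVP-2 it was 0.845, 0.666, 0 and 0, where each value above 0 stood for 3 reads.

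The lines differed at baseline in 5 of the 7 genes, beside 55.7% of all genes. Compared in all reads of the DMSO 4 h libraries, CYP24A1 was higher in T3M-4, at 0.521, 0.679, 0.665 and 0.625 CPM against 0, 0.0362, 0.0866, 0.0718 and 0.109 in AsPC-1, a log2 fold change of 3.24 (SE 0.64) with an edgeR adjusted p of 0.00147. THRA was lower in T3M-4, at 2.47, 2.88, 3.58 and 3.83 CPM against 14.3, 19.2, 11.5, 12.5 and 12.0, a log2 fold change of -2.22 (SE 0.21) with an adjusted p of 1.22e-05. For both genes the lines did not overlap, and the calls held without any 1 library. The line effect includes every difference between 2 lines of separate origin. It is also partly mixed with batch, since all AsPC-1 DMSO 4 h libraries were of batch 1 and the T3M-4 ones of experiment 2 were of batch 2.

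**Figure D5:**
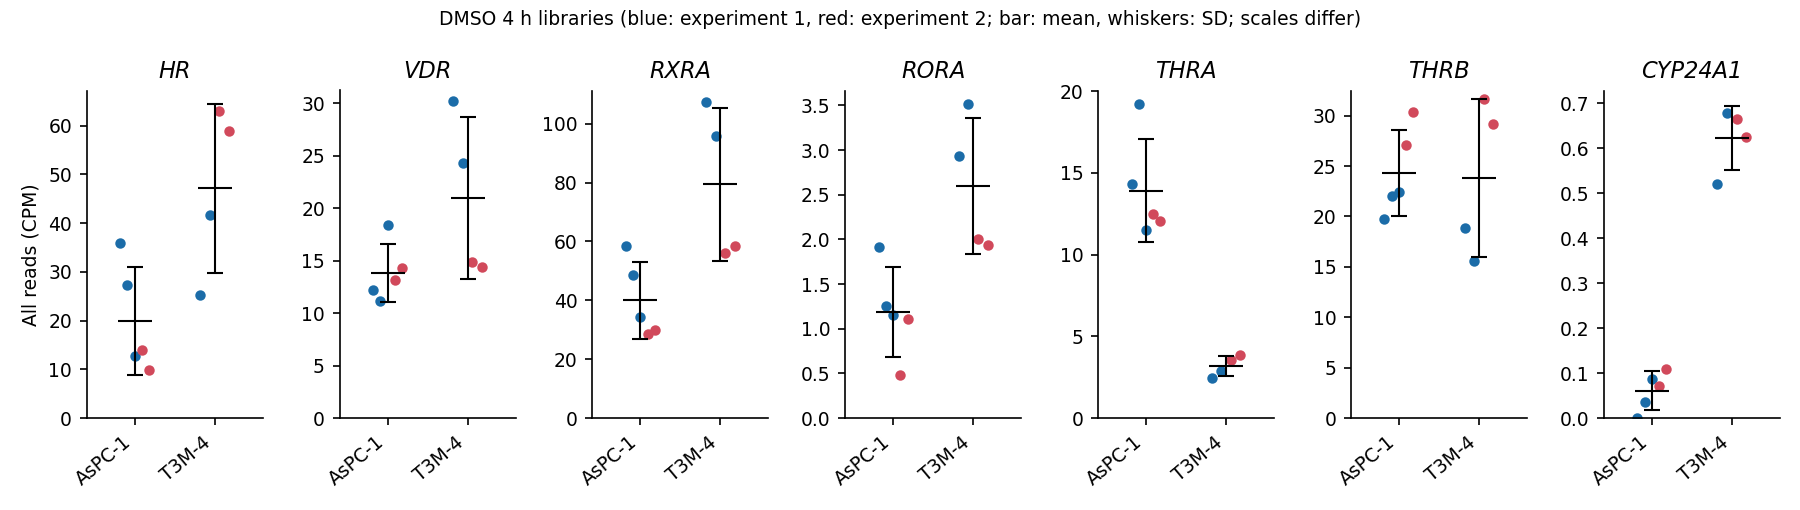
All-reads CPM of the 7 genes in each DMSO 4 h library of AsPC-1 (n = 5) and T3M-4 (n = 4), on linear axes that differ between genes. THRA lies at 11.5 to 19.2 in AsPC-1 and 2.47 to 3.83 in T3M-4, and the THRB ranges of the lines overlap.

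HR, RXRA and RORA were higher in T3M-4 with less certainty. HR was at 25.2, 41.7, 62.9 and 58.8 CPM in T3M-4 and 35.8, 27.3, 12.8, 13.9 and 9.93 in AsPC-1, with overlap. Its log2 fold change was 1.14 with an SE of 0.40 and an edgeR adjusted p of 0.0316. The HR call was lost without AsPC-1 replicate 1.3 (adjusted p 0.0645), 2.1 (0.0699) or 2.2 (0.0613) and without T3M-4 replicate 2.1 (0.0878) or 2.2 (0.0801). RXRA was at 107, 95.9, 56.0 and 58.5 against 58.4, 48.5, 34.5, 28.5 and 29.8 (log2 fold change 0.91, SE 0.28, adjusted p 0.0195), lost without T3M-4 replicate 1.1 (0.0564) or 1.2 (0.0542). RORA was at 2.93, 3.51, 2.01 and 1.94 against 1.91, 1.25, 1.16, 0.487 and 1.11 (log2 fold change 1.05, SE 0.37, adjusted p 0.0328), lost without AsPC-1 replicate 1.2 (0.0549), 1.3 (0.0530) or 2.2 (0.0633) or T3M-4 replicate 1.1 (0.0706) or 1.2 (0.0965).

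THRB and VDR were not called between the lines. THRB had a log2 difference of -0.13 (SE 0.23) that was 0.23 in the NEG libraries, and VDR one of 0.51 (SE 0.26, edgeR adjusted p 0.112). In the NEG libraries VDR was at 0.79 with an adjusted p of 0.027.

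Levels of the set also followed library set and experiment. Over AsPC-1 control libraries the median HR level in all reads was 25.9 CPM in set A, 19.2 in set B and 15.3 in set C, and that of VDR 8.51, 17.0 and 13.6. The VDR ranges of sets A (2.88 to 12.2) and B (9.04 to 18.5) overlapped between 9.04 and 12.2. In T3M-4 controls HR was at 23.0 to 41.7 CPM in experiment 1 and 58.8 to 64.8 in experiment 2, while VDR was at 23.0 to 30.2 and 11.5 to 14.8 and RXRA at 84.8 to 107 and 50.5 to 58.5. The 2 experiments did not overlap for these 3 genes. Nor did they for RORA (2.93 to 4.18 against 1.32 to 2.22) or THRA (2.33 to 2.88 against 3.31 to 3.83), while THRB and CYP24A1 overlapped. The share of all genes without overlap between the experiments is not given here, so this is not read as a trait of the set.

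Lists of related genes were read in the same comparisons, and those of AsPC-1 dTAG against NEG stand beside the 2.4% of all genes called there. In AsPC-1 T>C reads, of 25 other nuclear receptors tested 3 rose, namely NR0B2 (log2 fold change 1.42), NR4A2 (1.12) and NR2F1 (0.74), and 2 fell, PPARA (-0.56) and HNF4A (-1.36), a receptor that marks the classical subtype. Their median log2 fold change was -0.02, against 0.03 over all genes. Of 7 vitamin D genes 1 fell, THBD (-0.69), which encodes the anticoagulant receptor thrombomodulin. None of 21 nuclear receptor coregulators, 3 KDM3 demethylases (the JmjC family nearest to Hairless), 5 thyroid hormone genes, 10 retinoid genes or 13 clock genes was called by edgeR, with 3, 1, 0, 3 and 4 at an unadjusted p under 0.05.

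In T3M-4 dTAG libraries, where 0.834% of all genes were called, 1 gene of these lists was called, NR2F1 (log2 fold change 1.097, SE 0.20, edgeR adjusted p 0.0309), among 27 other nuclear receptors with a median of -0.05 against 0.01 over all genes. Of 22 coregulators, 3 KDM3 demethylases, 10 vitamin D genes, 9 thyroid hormone genes, 10 retinoid genes and 15 clock genes 0 were called, with 2, 0, 5, 1, 2 and 3 at an unadjusted p under 0.05. DESeq2 called 5 over all lists there. The CB-6644 comparisons called 0 genes of any list by edgeR and 0 by DESeq2.

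With NVP-2, 30.5% of all genes were called in AsPC-1 and 26.7% in T3M-4, and the counts of the lists below stand beside these shares. Of the other nuclear receptors in AsPC-1, 9 of 25 fell, led by NR2F2 (log2 fold change -2.41), NR0B2 (-3.16) and NR2F6 (-1.87), and 1 rose, NR6A1 (1.69), with a median of -0.63 against -0.05 over all genes. In T3M-4, 9 of 20 fell, among them the immediate early receptor NR4A1 (-4.30), and 1 rose, again NR6A1 (2.37), with a median of -1.36 against -0.12. Of the coregulators, the corepressor and coactivator genes, 4 of 21 rose in AsPC-1, led by HDAC1 (1.06), HDAC3 (0.99) and LCOR (0.90), and 8 of 21 in T3M-4, led by HDAC1 (2.97), HDAC3 (2.55) and TBL1XR1 (1.59), and 0 fell. These values are relative to a pool of new RNA that shrank, as for THRB.

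The smaller lists gave few calls with NVP-2, beside the same 30.5% and 26.7% of all genes. THBD fell in AsPC-1 (log2 fold change -2.98) and in T3M-4 (-3.67), 1 of 6 and 1 of 8 vitamin D genes, while DHCR7 (1.46) and ATP2B1 (0.84) rose in AsPC-1. KDM3A fell in AsPC-1 (-1.38), 1 of 3 KDM3 demethylases, and 0 of 3 were called in T3M-4. Retinoid genes gave 2 that rose, RDH10 (1.71) and RARRES1 (2.59), and 1 that fell, DHRS9 (-2.38), of 10 in AsPC-1, and CRABP2 (2.22) rose of 8 in T3M-4 while STRA6 had no T>C read with NVP-2. Of 13 clock genes CLOCK rose in both lines (1.29 and 1.17) and NPAS2 in T3M-4 (1.11), while 2 fell in AsPC-1 and 5 in T3M-4, among them PER1 (-2.47) and BHLHE40 (-2.57) in T3M-4. Thyroid hormone genes gave 0 of 4 in AsPC-1 and 1 of 7 in T3M-4, KLF9, which was near 0 with NVP-2.

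The genes whose T>C CPM followed HR most closely across libraries were EFNB1 (Pearson r = 0.856), TNS4 (0.828) and CEACAM1 (0.810) in AsPC-1, over 42 libraries and 11652 genes. In T3M-4 they were EPPK1 (0.929), LY6D (0.924) and EZR (0.923), over 20 libraries and 13048 genes. These correlations are over libraries that share treatments, sets and depth, and the AsPC-1 ones include the dTAG libraries that chose HR, so they describe these libraries only.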

How the data were processed

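SLAM-seq was measured in 62 libraries of 12 groups. The authors made 3′ end libraries with a Lexogen SLAM-seq kit, ran slamdunk at default settings on single-end reads (hg38, GENCODE v44 3′UTR exons) and summed per gene. The deposited counts are whole numbers of T>C reads and of all reads per gene, not normalized. No use was made of 18 unnamed empty columns. Libraries were grouped by GEO's labels.

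T>C reads and all reads were each tested with edgeR 4.0.16 (R 4.3.3; TMM factors, filterByExpr, quasi-likelihood fit, Benjamini-Hochberg adjustment, threshold 0.05). Labelled share was tested with limma 3.58.1 on log2 of T>C reads plus 0.5 over all reads plus 1, for genes with a mean of 20 or more reads. DESeq2 1.42.0 was an alternative. All fits ran on whole tables and were tested on simulated data. Floors are 3 reads.

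The genes of the set and the lists were chosen with earlier results of these data known. From each list, up to 3 called genes per direction and comparison with the smallest p are named, beside the 3 genes most correlated with HR. The AsPC-1 library sets came from Ward clustering of 500 variable genes into 3.

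Same-numbered libraries deviated together in AsPC-1 dTAG (10 pairs, r 0.264 to 0.544), T3M-4 dTAG (4 pairs, 0.167 to 0.453), AsPC-1 CB-6644 12 h (4 pairs, 0.330 to 0.650) and T3M-4 CB-6644 (4 pairs, 0.163 to 0.435), so the replicate number was taken as a block there as an alternative. The pairing comes from these correlations. In the same order, 5 of 10, 3 of 4, 2 of 4 and 1 of 4 treated libraries were best correlated with the control of their own number. Deviations were taken from the mean of the whole group, so they can hold differences between experiments.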

Additional observations from a re-analysis of the deposited data

Results flagged for a closer look

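In 11 of 248 groups of 4 to 10 libraries, the highest or lowest library stood far from the others by Dixon's criterion, and chance alone gives about 1 in 20. CYP24A1 in AsPC-1 CB-6644 4 h replicate 1.3 was at 0.483 T>C CPM with a labelled share of 21.7%, where the other libraries were at 0. CYP24A1 in all reads was at 0.123 CPM in AsPC-1 DMSO 12 h replicate 4, against 0.0196 to 0.0320 in the others. RORA in all reads was at 2.31 CPM in AsPC-1 CB-6644 4 h replicate 1.1, against 0.380 to 0.615.

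In T3M-4 NEG replicate 2.2, the labelled share of RORA was 14.0%, against 28.6% to 29.7%, and that of THRA was 1.75%, against 13.3% to 15.2%. RXRA in all reads was at 64.2 CPM in AsPC-1 NEG replicate 1.1, against 25.7 to 44.6. THRA in all reads was at 10.3 CPM in AsPC-1 CB-6644 12 h replicate 1, against 13.7 to 14.3, and its T>C CPM was 37.8 in AsPC-1 NVP-2 replicate 2.2, against 17.5 to 19.95. The labelled share of THRB was 19.3% in AsPC-1 NEG replicate 3.4, against 28.6% to 36.4%. VDR was at 31.7 T>C CPM in AsPC-1 DMSO 4 h replicate 1.3, against 22.9 to 24.8.

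Effects of opposite direction stood out for a pair of labelled shares, and neither difference was tested. THRB changed by -0.23 (log2) with dTAG in AsPC-1 and by 0.27 in T3M-4. HR changed by -0.69 with CB-6644 at 4 h in AsPC-1 (batch 1) and by 0.22 at 12 h (batch 2), so time and batch coincide.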

How the results depend on the processing

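Fold changes were recomputed 763 times over 55 gene results, and 18 changed sign, 4 of them of a called gene. Counts of genes called in the set are given first. With the replicate block, T>C reads in AsPC-1 dTAG gave 2 (HR and RXRA) in place of 1, T3M-4 dTAG 1 in place of 0, all reads in T3M-4 NVP-2 1 in place of 0 and in AsPC-1 NVP-2 0 in place of 2, and labelled share in AsPC-1 CB-6644 4 h 0 in place of 1. The AsPC-1 CB-6644 4 h and both NVP-2 comparisons share only replicate numbers, with r from -0.0826 to 0.472, -0.0875 to 0.187 and 0.0790 to 0.366, and 3 of 5, 2 of 4 and 2 of 4 libraries were best correlated with their own number. DESeq2 gave 1 in T3M-4 dTAG. Scaling by all reads gave 2 in AsPC-1 dTAG, 6 in place of 2 in AsPC-1 NVP-2 and 5 in place of 2 in T3M-4 NVP-2, since that scale keeps the loss of new RNA. Libraries summed per experiment gave 0 in AsPC-1 dTAG and 0 in T3M-4 NVP-2, with fewer samples. Set and experiment as a block gave 2 in AsPC-1 dTAG and set C alone 0 (the sets alone were chosen after seeing the data). In AsPC-1 dTAG all reads gave 0 without experiment 3, and labelled share, 3 as reported, gave 1 without experiment 1 and 5 without experiment 3. Centring on the library's share gave 1 (HR) in AsPC-1 dTAG, 0 in AsPC-1 CB-6644 4 h, 1 in place of 6 in AsPC-1 NVP-2 and 1 in place of 7 in T3M-4 NVP-2. NEG or DMSO 12 h controls of batch 2 gave 0 in AsPC-1 NVP-2, and batch 2 alone 0 in T3M-4 NVP-2. With 1 library left out, the count was 0 to 1 for labelled share in AsPC-1 CB-6644 4 h, 0 to 2 for all reads and 2 to 3 for T>C reads in AsPC-1 NVP-2, 1 to 3 for T>C reads in T3M-4 NVP-2 and 3 to 5 of 5 between the lines. Genes called over the 7 lists went from 6 to 10 with DESeq2 and 14 scaled by all reads in AsPC-1 dTAG, from 1 to 5 with DESeq2 in T3M-4 dTAG, from 24 to 39 with DESeq2 and 80 scaled in AsPC-1 NVP-2, and from 29 to 75 scaled in T3M-4 NVP-2.

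Signs turned for CYP24A1 in T3M-4 dTAG (batch 1 alone -0.13), RXRA in AsPC-1 CB-6644 4 h (experiment 2 alone 0.27) and RXRA in T3M-4 NVP-2 (batch 2 alone 0.054). HR in T3M-4 CB-6644 was 0.036 with the replicate block, 0.18 in batch 1 alone and -0.27 to 0.19 with 1 library left out (0.12, 0.096 and 0.090 without DMSO replicate 2.2, CB-6644 replicate 1.1 and 1.2). Scaled by all reads, THRA and THRB were -2.57 and -2.60 in AsPC-1 NVP-2 and -1.69 and -1.54 in T3M-4 NVP-2. Centred, the share of THRB was 0.50 in AsPC-1 NVP-2 and those of THRA and THRB were 0.23 and 0.26 in T3M-4 NVP-2. THRB between the lines was 0.23 in NEG libraries and -0.30 to 0.031 with 1 library left out. Beyond scaling and sample number the cause was not tested. CYP24A1 in AsPC-1 and RORA against batch 2 controls could not be fitted. Depth limits RORA and CYP24A1.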
